A study of Mus musculus with 42 samples.

Results

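The 10 genes described here encode receptors of tissue-resident macrophages: Cd163, Mrc1, Lyve1, Folr2, Timd4, Marco, Vsig4, Stab1, Msr1 and Adgre1. They were found by gene name among the 26653 genes of the deposited expression table, 9 under the current symbol and Adgre1 under its older symbol Emr1. The group was chosen by measured values of these same data, with Cd163 in view, so its values are given as a description and no test is made of them. The question was whether Cd163 was higher in Tug1-/- mice on its own or together with other resident macrophage genes. Cd163 was higher by over 1.5 times in 4 of the 5 tissues in which it reached a mean of 1 FPKM. In the spleen and heart no other receptor of the group passed that limit, in the eyes only Folr2 did, and in the prostate Mrc1, Folr2, Adgre1 and Lyve1 did.

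RNA had been sequenced from 42 samples of male mice, 22 wild-type (WT) and 20 knockout (KO). The line is Tug1_tm1.1Vlcg, on C57BL/6J (N3-C57BL/6J, no Neo). In KO animals both copies of Tug1 are replaced by a lacZ reporter, and WT animals carry 2 normal Tug1 alleles without lacZ. Testes gave 4 WT and 3 KO samples, prostate gave 3 and 2, and spleen, eyes, heart, liver and passage 2 mouse embryonic fibroblasts (MEFs) gave 3 of each genotype. The labels give no age for the animals, and they do not say whether tissues came from the same animals. The deletion is present in every cell of the KO animals, macrophages included, and the lacZ knock-in is shared by all KO samples.

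For each gene the table gives 1 WT and 1 KO value in every tissue, which the authors made from all samples of a group together. The unit is FPKM, fragments per kilobase of transcript scaled to the number of fragments mapped. Values of single samples, their spread and the sequencing depth were therefore unknown, so no SD or overlap of groups could be given and no test could be run on the expression values. The authors' own p-values in the table were not used. A change is the log2 of the KO value over the WT value, each plus 0.1 FPKM, so that differences of weakly expressed genes come out too small. A gene is called higher or lower when it is past 1.5 times on that scale (0.58 in log2) and the mean of its WT and KO values is at least 1 FPKM. Whether any such difference is larger than the spread between animals was not tested.

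Resident macrophages settle in most organs before or around birth and clear dying cells, debris and aged red cells through surface receptors. CD163 takes up complexes of haemoglobin and haptoglobin, and its gene is switched on by glucocorticoids and interleukin-10. MRC1, the mannose receptor CD206, binds sugars on glycoproteins, and LYVE1 binds hyaluronan. MARCO and MSR1 are class A scavenger receptors, STAB1 is a scavenger receptor also found on sinusoidal endothelium, TIMD4 binds phosphatidylserine on dying cells, VSIG4 is a complement receptor, FOLR2 binds folate and ADGRE1 is the F4/80 antigen. LYVE1, MRC1 and STAB1 are also made by lymphatic or sinusoidal endothelial cells.

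Tug1 was measured at 11.2 to 27.7 FPKM in WT tissues and at 0.00753 to 0.402 FPKM in KO tissues. LacZ was at most 0.00894 FPKM in WT tissues and between 0.355 and 54.3 FPKM in KO tissues, so genotype and label matched in all 7 tissues. The markers of each tissue were present, such as Prm1 at 9265 and 8230 FPKM in WT and KO testes and Tnnt2 at 6978 and 7008 FPKM in heart. The exceptions were Sbp, at 0.831 and 1.15 FPKM in prostate beside Pbsn at 25020 and 21141 FPKM, and Alb, listed at 0 in liver in both genotypes beside Apoa1 at 12014 and 13744 FPKM. The median change of all genes over the minimum lay between -0.06 and 0.03 in the 7 tissues.

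The promoters of Cd163, Mrc1 and Marco are shown because Cd163 carries the question, Mrc1 has the next largest change in the prostate, and Marco has the largest change of the group in liver and MEFs. Each run covers 250 bases before the start of transcription and 50 after it, in RefSeq (GRCm38.p6), read in the direction of the gene. Cd163 lies at chr6:124304401-124304700 (plus strand), Mrc1 at chr2:14229164-14229463 (plus strand) and Marco at chr1:120504975-120505274 (minus strand). Capitals mark TGTTCT, the hexamer of glucocorticoid receptor sites, and AGGAAG, the core bound by the macrophage factor PU.1, each searched on both strands (AGAACA and CTTCCT on the other strand).
Cd163: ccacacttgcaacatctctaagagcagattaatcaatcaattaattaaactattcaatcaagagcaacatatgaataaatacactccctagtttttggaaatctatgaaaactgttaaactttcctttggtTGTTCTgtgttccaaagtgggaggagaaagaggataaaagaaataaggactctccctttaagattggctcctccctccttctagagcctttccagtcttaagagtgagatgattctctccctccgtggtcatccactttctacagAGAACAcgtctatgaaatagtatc
Mrc1: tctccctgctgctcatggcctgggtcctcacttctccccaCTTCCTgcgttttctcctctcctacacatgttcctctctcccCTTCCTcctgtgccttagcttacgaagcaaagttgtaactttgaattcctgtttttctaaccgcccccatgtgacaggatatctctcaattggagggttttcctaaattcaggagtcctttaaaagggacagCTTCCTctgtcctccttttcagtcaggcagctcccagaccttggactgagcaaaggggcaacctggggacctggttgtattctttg
Marco: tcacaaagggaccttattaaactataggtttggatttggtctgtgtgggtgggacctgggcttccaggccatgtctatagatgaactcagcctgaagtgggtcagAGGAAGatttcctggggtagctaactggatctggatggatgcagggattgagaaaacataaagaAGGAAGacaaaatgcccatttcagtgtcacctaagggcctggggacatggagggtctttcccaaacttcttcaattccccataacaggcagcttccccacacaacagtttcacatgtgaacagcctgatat
The Cd163 window held 2 matches to the glucocorticoid receptor hexamer, the first beginning 119 bases before the start and the second 26 bases after it, and none to the PU.1 core. The Mrc1 window held 3 matches to the PU.1 core and the Marco window 2, and neither held that hexamer. No matches overlapped. Of the 32851 promoter windows of that table, 19.0% held the glucocorticoid receptor hexamer at least once and 2.54% held it 2 or more times, and 35.4% held the PU.1 core. Folr2 has 2 windows, and 1 of them held both motifs. The Stab1 window held the PU.1 core, and the Timd4 and Vsig4 windows held neither. Matches of 6 letters are frequent by length alone and describe the sequence only.

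Cd163 occupies chr6:124304656-124330527 on the plus strand of GRCm38, and the 10 genes lie on 9 different chromosomes. Only Lyve1 (chr7:110850607-110863239) and Folr2 (chr7:101839988-101857194) share a chromosome. In the annotation no other gene overlaps Cd163. Folr2 overlaps an antisense gene and a processed pseudogene, Gm10602 and Gm45319, and 112 bp of Stab1 overlap Nt5dc2 on the other strand. The library kit does not keep strand, so reads of these overlapping stretches cannot be assigned with certainty.

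In WT tissues Cd163 was highest in spleen at 12.7 FPKM, then in heart at 6.78, liver at 5.93, prostate at 1.08, eyes at 1.07 and testes at 0.360, and it was near 0 in MEFs at 0.0326 FPKM. In KO tissues it was 20.4 FPKM in spleen, 11.3 in heart, 8.38 in liver, 2.82 in prostate, 2.39 in eyes, 0.876 in testes and 0.0124 in MEFs. The order of the tissues was thus the same in both genotypes. Prostate and eyes were neighbours that differed by little in WT, and without replicate values no neighbours in this order can be separated. The sum of all FPKM values differed between tissues, from 378014 in WT eyes to 1124495 in WT liver, so that with every sum set to 1000000 WT Cd163 was 26.5 in spleen, 11.1 in heart, 5.27 in liver, 2.83 in eyes and 1.79 in prostate. On that scale eyes came before prostate.

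**Figure D1:**
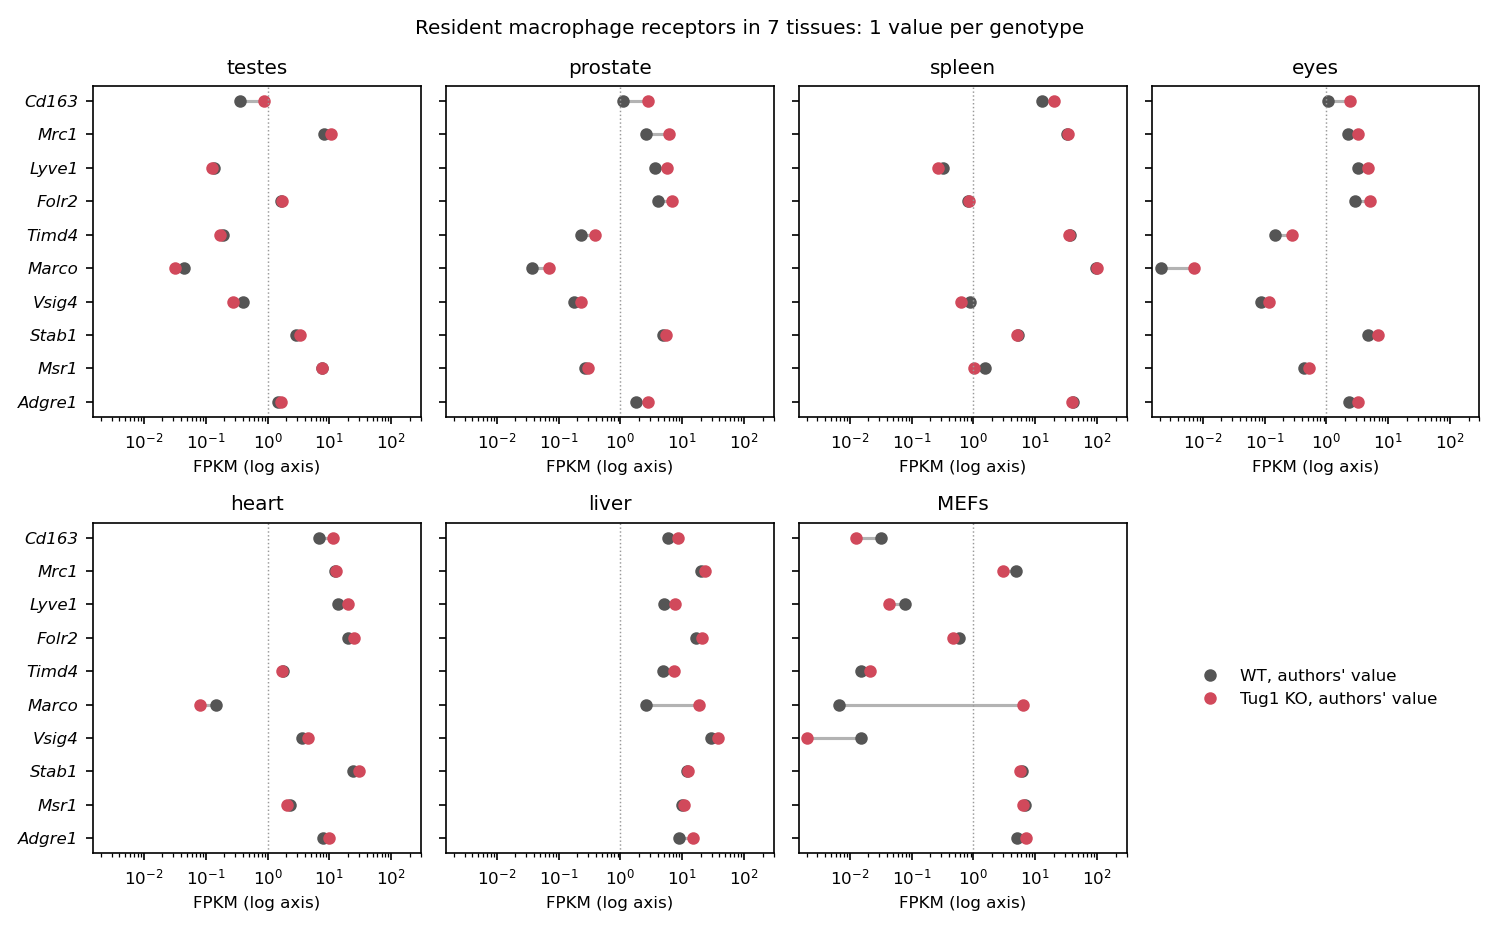
Expression of the 10 receptors in 7 tissues, in FPKM on a log axis, with 1 grey point for WT and 1 red point for KO per gene; the dotted line marks 1 FPKM, and Vsig4 in KO MEFs, listed at 0, is drawn at the left edge. Cd163 lies to the right in KO in all tissues but MEFs, while in spleen the points of Mrc1, Timd4, Marco and Adgre1 nearly coincide.

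The KO value of Cd163 was 2.47 times the WT value in prostate, 2.12 times in eyes, 2.12 times in testes, 1.65 times in heart, 1.61 times in spleen and 1.41 times in liver on the scale with 0.1 FPKM added. In log2 the changes were 1.30, 1.09, 1.08, 0.72, 0.69 and 0.49, in the same order, and -0.24 in MEFs. Testes and MEFs lay under the minimum of 1 FPKM, and liver lay over it but short of the 1.5-fold limit. Among all genes over the minimum, 0.258% had a larger change than Cd163 in testes, 0.425% in heart, 0.448% in eyes, 0.666% in prostate, 3.60% in liver and 3.84% in spleen. Of the 19733 genes over the minimum in at least 1 tissue, 21 were called higher in 4 or more tissues, Cd163 among them (0.106%). That share is lowered by genes over the minimum in fewer than 4 tissues, which could not be called in 4. Cd163 was chosen by these same values, so its place among all genes is a description only. In bulk tissue more cells of a type and more RNA per cell cannot be told apart.

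**Figure D2:**
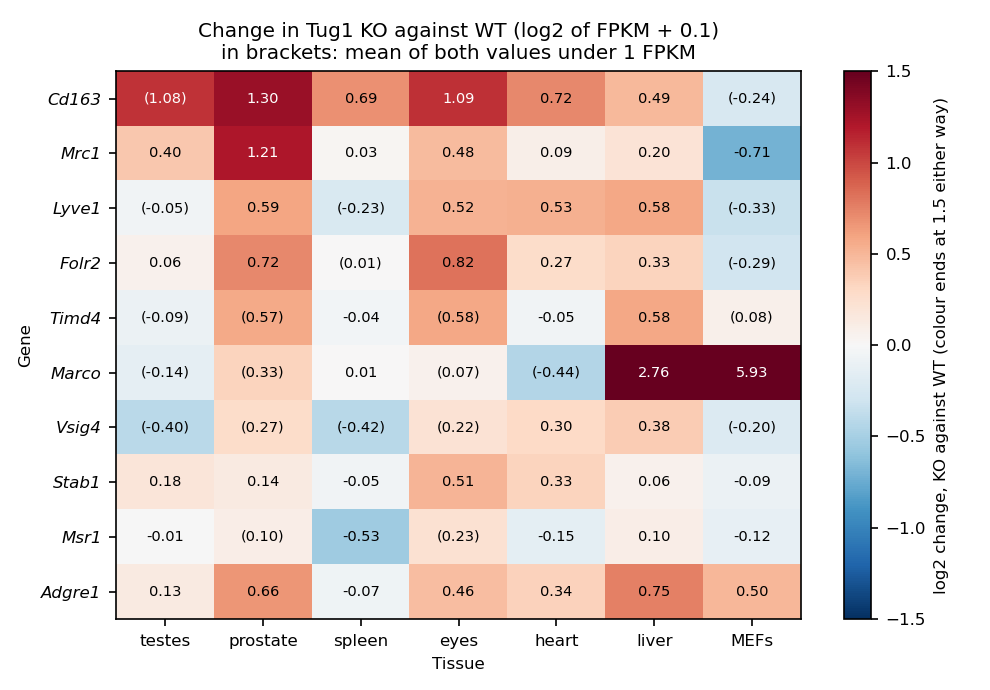
Change of each receptor (rows) in each tissue (columns), as log2 of KO over WT with 0.1 FPKM added, in numbers and as colour that saturates at 1.5 in either direction; brackets mark genes with a mean under 1 FPKM. The top row, Cd163, holds the largest value of its column in testes, prostate, spleen, eyes and heart, and Marco holds it in liver and MEFs.

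In prostate most of the receptors that were expressed were higher. All 10 had a KO value above the WT value, 6 were over the minimum, and 5 of those 6 were called higher, where 2.40% of 12166 genes were called higher and 0.682% lower. Mrc1 was 2.57 FPKM in WT and 6.09 in KO, a change of 1.21 that came close to that of Cd163. Folr2 went from 4.08 to 6.80 FPKM (0.72), Adgre1 from 1.76 to 2.84 (0.66) and Lyve1 from 3.68 to 5.60 (0.59, just past the limit). Stab1, which had the highest WT level of the group there, was 4.89 and 5.38 FPKM (0.14). Timd4, Marco, Vsig4 and Msr1 were all under 0.4 FPKM in both genotypes. The median change over the 9 receptors other than Cd163 was 0.57, so that Cd163 exceeded it by 0.73.

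In eyes the pattern was similar and weaker. Cd163 was 1.07 FPKM in WT and 2.39 in KO, and Folr2 was 2.87 and 5.16 FPKM (0.82), so that 2 of the 6 members over the minimum were called higher beside 2.64% of 14296 genes (0.860% lower). Lyve1 was 3.30 and 4.77 FPKM (0.52), Stab1 4.74 and 6.79 (0.51), Mrc1 2.27 and 3.21 (0.48) and Adgre1 2.35 and 3.28 (0.46), all above WT and none past the limit. The 4 receptors under the minimum also had higher KO values, from 0.07 for Marco to 0.58 for Timd4. The median over the other 9 receptors was 0.48, and Cd163 exceeded it by 0.61, or by 0.36 with 1 FPKM added in place of 0.1.

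In spleen Cd163 stood apart from the rest. It was 12.7 FPKM in WT and 20.4 in KO, and it was the only 1 of 7 members over the minimum to be called higher, in a tissue where 4.91% of 12618 genes were called higher and 1.10% lower. Marco, a receptor of marginal zone macrophages, was 97.9 and 98.3 FPKM (0.01). Adgre1 was 41.4 and 39.4 FPKM (-0.07), Timd4 35.9 and 34.8 (-0.04), Mrc1 32.9 and 33.6 (0.03) and Stab1 5.30 and 5.10 (-0.05). Msr1 was 1.54 and 1.04 FPKM, a change of -0.53 short of the limit. Folr2 (0.830 and 0.838 FPKM), Vsig4 (0.866 and 0.625) and Lyve1 (0.326 and 0.264) were under the minimum. The median over the other 9 was -0.05, which Cd163 exceeded by 0.74.

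In heart Cd163 was 6.78 FPKM in WT and 11.3 in KO and was again the only member called higher, of 9 over the minimum, where 0.843% of 12691 genes were called higher and 1.44% lower. Lyve1 came nearest, at 13.6 and 19.7 FPKM (0.53). Adgre1 was 7.81 and 9.90 FPKM (0.34), Stab1 23.8 and 29.8 (0.33), Vsig4 3.68 and 4.56 (0.30) and Folr2 20.4 and 24.7 (0.27). Mrc1, at 12.2 FPKM in WT and 1.06 times that in KO (0.09), and Timd4, at 1.81 and 1.74 (-0.05), were nearly equal in both genotypes. Msr1 was 2.31 and 2.07 FPKM (-0.15), and Marco was under the minimum at 0.145 and 0.0803 FPKM. The median over the other 9 was 0.27, and Cd163 exceeded it by 0.45.

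In liver, where all 10 receptors were over the minimum, the largest change belonged to Marco and not to Cd163. Marco was 2.63 FPKM in WT and 18.4 in KO, 6.79 times higher, and 6 of 11697 genes had a larger change. Adgre1 was 8.84 and 14.9 FPKM (0.75), and these were the 2 members called higher beside 2.50% of all genes (2.22% lower). Timd4 was 4.92 and 7.38 FPKM (0.58) and Lyve1 5.07 and 7.63 (0.58), both just short of the limit. Cd163 followed at 5.93 and 8.38 FPKM (0.49), then Vsig4, the receptor with the highest WT level in liver, at 29.1 and 38.0 (0.38), and Folr2 at 16.4 and 20.6 (0.33). Mrc1, Msr1 and Stab1 differed by 0.20, 0.10 and 0.06. The sum of all FPKM values in KO liver was 0.897 times that in WT liver, and with both columns set to the same sum Cd163 in liver passed the limit at 0.65.

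In testes no member was called higher or lower, beside 1.17% of 15143 genes called higher and 0.753% lower. Cd163 had the largest change of the group, from 0.360 to 0.876 FPKM, and lay under the minimum. Mrc1, the receptor with the highest level in testes, was 8.14 and 10.7 FPKM (0.40). Msr1 was 7.70 and 7.65 FPKM (-0.01), Stab1 2.94 and 3.34 (0.18), Folr2 1.63 and 1.70 (0.06) and Adgre1 1.49 and 1.63 (0.13). Lyve1, Timd4, Marco and Vsig4 were all under 0.4 FPKM in both genotypes, with changes from -0.40 to -0.05. The median over the other 9 was -0.01. With 1 FPKM added in place of 0.1 the change of Cd163 in testes was 0.46.

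MEFs had almost no Cd163, at 0.0326 and 0.0124 FPKM, although other macrophage genes were present. The complement gene C1qa was 37.3 FPKM in WT MEFs and 26.7 in KO MEFs, and Csf1r, the receptor that macrophages need for survival, was 9.62 and 7.53 FPKM, beside Col1a1 of fibroblasts at 1754 and 1632 FPKM. Marco was 0.00671 FPKM in WT and 6.41 in KO, a change of 5.93 that only 1 gene exceeded, and it passed the minimum only through the KO value. Mrc1 was 4.93 and 2.97 FPKM (-0.71), the 1 member called lower in any tissue. Adgre1 was 4.99 and 7.08 FPKM (0.50), Msr1 6.84 and 6.30 (-0.12) and Stab1 6.08 and 5.70 (-0.09). Folr2 was 0.594 and 0.468 FPKM, and Lyve1, Timd4 and Vsig4 were under 0.1 FPKM in both genotypes. The background in MEFs was 0.975% of 11586 genes called higher and 2.20% lower.

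**Figure D3:**
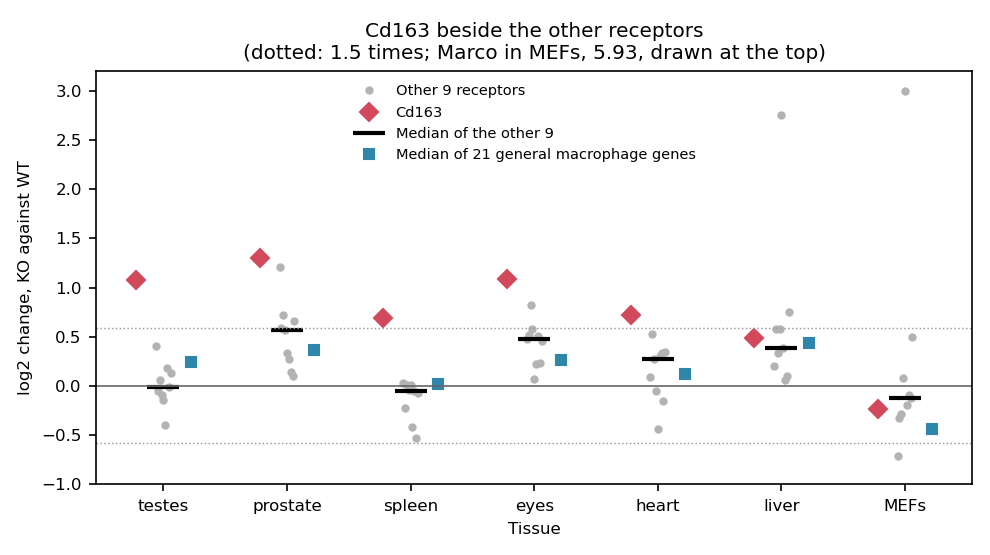
Change of Cd163 (red diamonds), of the other 9 receptors (grey points, with their median as a black bar) and the median of 21 general macrophage genes (blue squares) in each tissue, as log2 of KO over WT; dotted lines mark 1.5 times and Marco in MEFs (5.93) is drawn at the top. Cd163 sits above every other receptor in 5 of 7 tissues, among them testes, where its mean was under 1 FPKM and its margin over their median was 1.09, or 0.47 with 1 FPKM added in place of 0.1.

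Ratios taken within a genotype set Cd163 against Csf1r, from the list of general macrophage genes, and against Adgre1 and Mrc1, members of the group itself. Mrc1 is also made by endothelial cells, so that ratio is not taken to macrophages alone. Cd163 per Csf1r was 0.200 in WT and 0.417 in KO prostate, 2.08 times higher, and 0.105 and 0.212 in eyes, 2.03 times higher. It was 0.138 and 0.260 in testes, 0.102 and 0.161 in spleen and 0.330 and 0.475 in heart, and in liver the ratio was nearly the same in both genotypes, at 0.315 and 0.330. Cd163 per Adgre1 was higher in KO in the same 5 tissues, by 1.31 times in heart to 2.22 times in testes, and lower in liver, at 0.671 in WT and 0.562 in KO. Cd163 per Mrc1 was 1.56 to 1.84 times higher in KO testes, spleen, eyes and heart, 1.23 times in liver and only 1.10 times in prostate, where Mrc1 had moved with it.

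**Figure D4:**
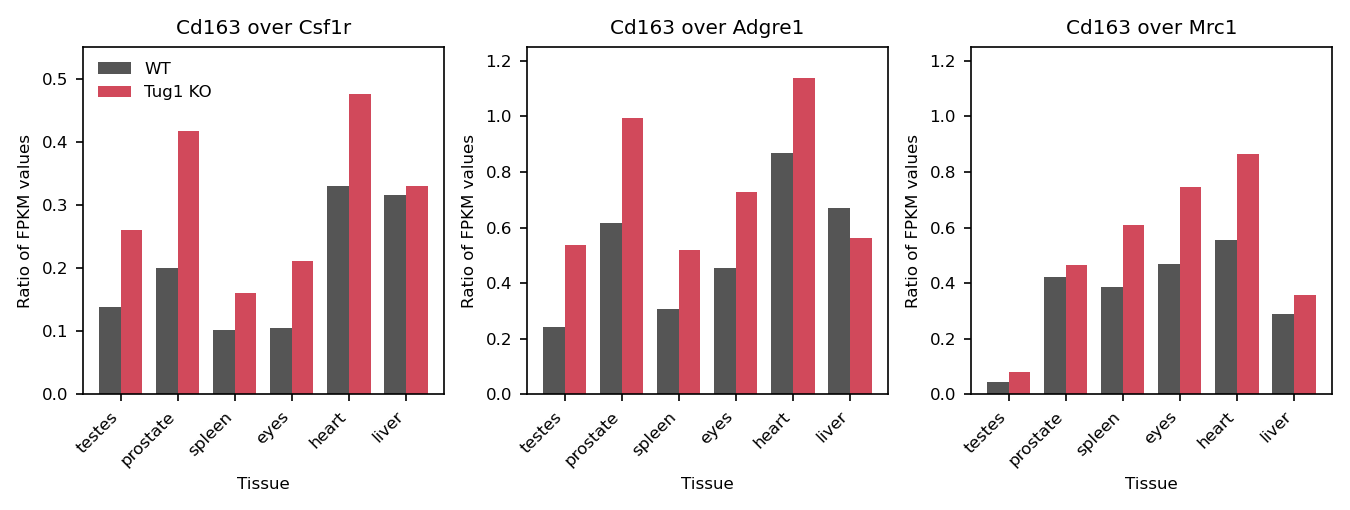
Ratio of Cd163 to Csf1r, Adgre1 and Mrc1 (ratio of FPKM values, bars from 0) in WT (grey) and KO (red) in 6 tissues, without MEFs, where Cd163 was near 0. The red bar is higher in every tissue for Csf1r and Mrc1 and lower in liver for Adgre1 (0.671 in WT, 0.562 in KO).

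The list of 21 general macrophage genes includes Csf1r, Cd68, the C1q genes and Spi1. Its median change was below that of Cd163 in the 6 tissues other than MEFs. Mpeg1 exceeded Cd163 in testes, and in liver several genes of the list did. In liver the change of Cd163, 0.49, was close to the median of the list. The median was 0.44 in liver, 0.36 in prostate, 0.26 in eyes, 0.24 in testes, 0.12 in heart, 0.02 in spleen and -0.44 in MEFs. Of the genes over the minimum, 0 of 18 were called higher in prostate, 0 of 20 in spleen, 0 of 20 in eyes and 0 of 21 in heart. The shares of all genes called higher were 2.40%, 4.91%, 2.64% and 0.843%. In a list of this size counts of 0 lie near those shares. Called higher were 2 of 18 in liver, 2 of 21 in MEFs and 1 of 17 in testes, beside 2.50%, 0.975% and 1.17%. C1qa was 19.0 and 27.8 FPKM in prostate (0.55), 20.1 and 27.6 in eyes (0.46), 63.2 and 85.2 in heart (0.43) and 199 and 198 in spleen (-0.01). The genes called higher were Lyz2, which encodes lysozyme, and Cd14, a receptor for bacterial lipopolysaccharide, in liver (0.80 and 0.67) and in MEFs (0.80 and 0.91), and Mpeg1, a pore-forming protein of macrophages, in testes, from 4.02 to 9.36 FPKM (1.20). In MEFs 5 of the 21 genes over the minimum were called lower, beside 2.20% of all genes. They included Trem2 (-0.74), Fcgr1 (-0.68), Ctss (-0.63) and Laptm5 (-0.62), named here after their values were seen.

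Of 18 other genes of resident macrophages, 7 of the 13 over the minimum were called higher in eyes, 4 of 12 in prostate, 3 of 11 in testes, 1 of 16 in spleen, 1 of 12 in liver and none in heart or MEFs. The shares of all genes were 2.64% in eyes, 2.40% in prostate, 1.17% in testes, 4.91% in spleen and 2.50% in liver. Cd209f and Fcna in eyes and Slc40a1 in testes passed the minimum only through the KO value. Fcna was 0.894 and 2.74 FPKM in eyes and is named after its values were seen. Pf4, a chemokine that megakaryocytes and platelets make in large amounts and some resident macrophages also express, was called higher in 5 tissues, among them spleen at 60.7 and 118 FPKM (0.95) and eyes at 4.02 and 8.57 FPKM (1.07), and it was 79.1 and 71.3 FPKM in heart. Cd209f, a lectin, was called higher in prostate (1.86 and 3.42 FPKM) and eyes (0.931 and 1.90 FPKM). Retnla was higher in eyes at 21.4 and 38.6 FPKM but lower in heart at 43.0 and 21.6 and in spleen at 2.32 and 0.549. The other gene called lower was Cbr2 in spleen (-0.59), named after its value was seen. In liver the Kupffer cell genes Clec4f, at 84.0 and 100 FPKM (0.25), and Cd5l, at 72.3 and 91.0 (0.33), were above WT and short of the limit. Id3 was below WT there at 49.9 and 36.4 FPKM (-0.45), and Nr1h3 was nearly equal (-0.02). All of these were also named after their values were seen. Of the 18 genes, 11 had a KO value above WT in liver, and the median change was 0.14.

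The list of inducers, ligands and sheddases of CD163 held 15 genes, among them 4 whose transcription glucocorticoids raise: Fkbp5, Tsc22d3, Per1 and Zbtb16. Fkbp5, a co-chaperone of the glucocorticoid receptor, was called higher in spleen (14.8 and 30.4 FPKM, 1.04), prostate (12.4 and 22.1, 0.83), heart (5.77 and 15.9, 1.44) and liver (12.3 and 26.2, 1.09). Tsc22d3, which encodes the glucocorticoid-induced leucine zipper, was called higher in prostate (0.61), eyes (0.81), heart (0.73) and liver (80.4 and 183 FPKM, 1.18). Zbtb16, a zinc finger factor, was called higher in eyes (0.71), heart (5.08 and 14.8 FPKM, 1.53) and liver (1.61 and 5.71 FPKM, 1.76), and in spleen it was 0.586 and 1.06 FPKM, under the minimum. These 3 genes are named because they were called in the most tissues of the list, so that any overlap of their calls with those of Cd163 is no independent evidence. The overlap was partial: Fkbp5 was not called in eyes (0.35), Tsc22d3 not in spleen (0.22) and Zbtb16 not in prostate (0.48). Per1, a clock gene and the other of the 4, was called in no tissue, with changes of 0.57 in heart, 0.50 in prostate and liver, 0.34 in spleen, 0.26 in eyes, 0.14 in MEFs and -0.25 in testes, and is named after its values were seen. In liver, where Fkbp5, Tsc22d3 and Zbtb16 were all called higher, the change of Cd163 was 0.49, short of the limit. With both columns set to the same sum it was 0.65, past the limit. In testes the changes of these 3 were 0.17, 0.08 and 0.26, and Cd163, with a change of 1.08, lay under the minimum. Whether glucocorticoids had a part in any of these values was not tested.

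The gene of the glucocorticoid receptor itself, Nr3c1, differed by -0.17 to 0.09 over the 7 tissues, and Adam17, the protease that sheds CD163 from the cell surface, by -0.01 to 0.21; both were named after their values were seen. Il10 was under 0.6 FPKM in every tissue and genotype. In testes Tnfrsf12a, the receptor of the cytokine TWEAK that CD163 also binds, was 0.881 and 4.44 FPKM (2.21). It passed the minimum only through the KO value. The remaining calls of this list, named after their values were seen, were Il6ra in eyes (0.65) and liver (0.78) and Il6 in MEFs (0.61). Il6ra in eyes, at 0.789 and 1.30 FPKM, passed the minimum only through the KO value. Called higher were 4 of 13 genes over the minimum in liver, 3 of 13 in heart and 3 of 13 in eyes, beside 2.50%, 0.843% and 2.64%. In prostate 2 of 12 were, beside 2.40%, and in spleen 1 of 12, beside 4.91%. In testes 1 of 11 was, beside 1.17%, and in MEFs 1 of 12, beside 0.975%. None of the 15 was called lower in any tissue, beside 0.682% to 2.22% of all genes. In so short a list that count of 0 lies near those shares. Whether hormone levels or handling differed between the animals was not tested.

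**Figure D5:**
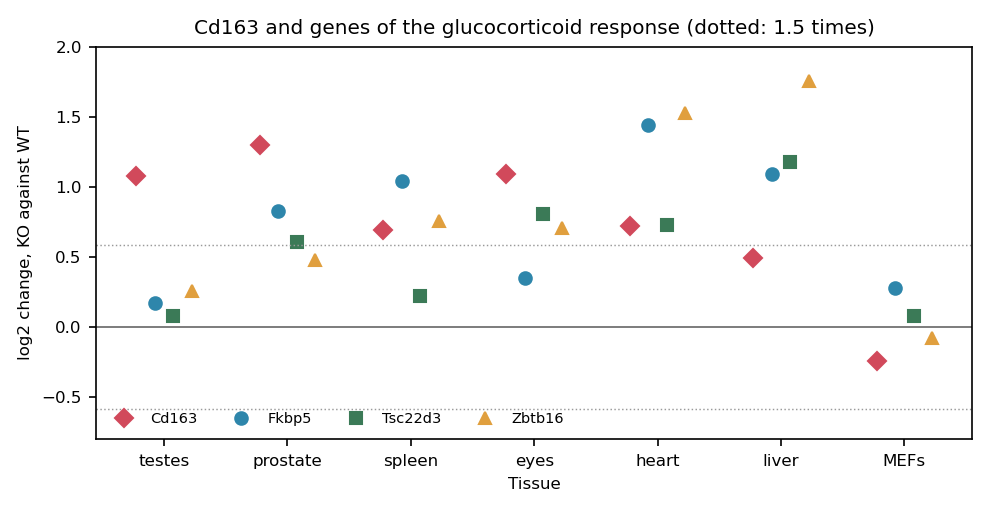
Change of Cd163 beside Fkbp5, Tsc22d3 and Zbtb16 in each tissue, as log2 of KO over WT (dotted lines at 1.5 times). The 3 genes exceed Cd163 in liver and in heart, where Tsc22d3 does so by little (0.73 against 0.72). They lie between 0.08 and 0.26 in testes, where Cd163 is at 1.08 with a mean under 1 FPKM.

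Of 12 genes that handle haemoglobin and haem, 1 was called higher in each tissue but MEFs. In those tissues 9 to 12 of them were over the minimum. The share of all genes called higher there ran from 0.843% in heart to 4.91% in spleen. The median change of the list lay between 0.02 and 0.16. Hp, which encodes the haptoglobin that CD163 takes up with haemoglobin, was higher in prostate (4.19 and 14.2 FPKM, 1.74), eyes (5.35 and 21.5, 1.99) and spleen (8.19 and 12.6, 0.62), lower in heart (21.7 and 11.1, -0.96) and nearly equal in liver, its main source (2318 and 2305 FPKM). Hmox1, which breaks down haem, was higher in liver at 16.4 and 28.3 FPKM (0.78) and just past the limit in heart (0.59), and it was 308 and 307 FPKM in spleen. Slc40a1, the iron exporter, was higher in testes (0.792 and 1.41 FPKM, 0.76) and was 166 and 159 FPKM in spleen. In testes it passed the minimum only through the KO value, and it is also counted among the other genes of resident macrophages.

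Genes of other cells moved in some of the same tissues. The 6 red cell genes found in the table were all called higher in spleen, with a sum of 7795 FPKM in WT and 14538 in KO, and 5 of them were in eyes (184 and 538) and 4 in prostate (85.4 and 144). Hbb-bs was 107 and 329 FPKM in eyes and 4308 and 7819 in spleen. In heart Hba-a1 and Hbb-bs were lower and Hba-a2 and Hbb-bt higher at similar sums (7468 and 7917), and reads of these near-identical globin copies cannot be assigned with certainty. Of 7 monocyte and neutrophil genes, S100a8 and S100a9 were higher in spleen (283 and 561 FPKM for S100a8), in eyes (0.628 and 2.55) and in liver (1.40 and 2.23), with sums of 1183 and 1744 FPKM in spleen and 21.2 and 27.5 in eyes. In heart Plac8 (-0.90) and Ly6c2 (-0.61) were lower. The part of red cells and neutrophils in the values of Cd163 was not tested.

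Among the lymphocyte genes, Ms4a1 (-1.33) and Cd79a (-1.06) were lower in heart, whose lymphocyte sum was 20.1 FPKM in WT and 9.93 in KO, and neither passed the limit elsewhere. Lyve1, Mrc1 and Stab1 are shared with endothelium, so the endothelial lists are given beside them. None of the 5 genes of blood endothelium and none of the 5 of liver sinusoidal endothelium was called in any tissue. Of all genes 0.843% to 4.91% were called higher and 0.682% to 2.22% lower. Blood endothelium had 1 gene over the minimum in testes and 2 in MEFs. Sinusoidal endothelium had 1 each in prostate, eyes and MEFs. Lists this small cannot show that a cell type was unchanged. The sums for blood endothelium were 33.1 and 34.2 FPKM in prostate and 46.5 and 51.7 in eyes. Of the lymphatic genes, Mmrn1 was higher in spleen (2.26 and 4.79 FPKM), Ccl21a in liver (0.81) and Pdpn in testes (0.82), and the lymphatic sum in prostate was 21.1 and 22.9 FPKM. No dendritic cell gene was called. Of the 5 on that list, 0 were over the minimum in prostate and 1 each in eyes, heart, liver and MEFs. Of 5 fibroblast genes, Lum was higher in prostate (4.98 and 8.82 FPKM) and lower in MEFs (-0.60), and Pdgfra was higher in testes (0.90).

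The genes near Cd163 on chromosome 6 were counted in the same way. Of 57 other genes of the table that start within 1 Mb of its start, 47 were over the minimum in at least 1 tissue, 4 were called higher in 1 tissue each and 2 lower, and none was called in 3 or more tissues. No neighbour was called in eyes, heart or MEFs. In spleen 2 of 38 neighbours over the minimum were called higher, beside 4.91% of all genes. In prostate 1 of 37 was higher, beside 2.40%, and in testes 1 of 35, beside 1.17%. Lower were 1 of 37 in prostate, beside 0.682%, and 1 of 33 in liver, beside 2.22%. Whether such small counts differ from the shares of all genes was not tested. The 6 calls, named after their values were seen, were A330044P14Rik (0.59) and Acrbp (-0.65) in prostate, Cdca3 (0.89) and Ncapd2 (0.65) in spleen, C1s1 (0.73) in testes and Clstn3 (-1.96) in liver.

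The 5 genes whose changes over the 7 tissues lay closest to those of Cd163 were AI607873, Ms4a6d, Lrg1, Sla and Fabp4, with root mean square differences of 0.35, 0.36, 0.39, 0.43 and 0.44 in log2. They were taken from 16745 other genes with a mean of at least 1 FPKM, each tissue giving 1 value made from shared libraries. AI607873 was 0.702 and 1.48 FPKM in prostate, 4.58 and 7.11 in heart and 0.764 and 0.477 in MEFs. Ms4a6d, a membrane protein of myeloid cells, was 0.498 and 1.46 FPKM in prostate and 4.18 and 4.22 in spleen, where it did not follow Cd163. Lrg1, a secreted glycoprotein of the acute phase, was 1.53 and 4.88 FPKM in testes, and Fabp4, a fatty acid carrier of adipocytes that macrophages and capillary endothelium also express, was 76.2 and 243 FPKM in eyes. Among the receptors the nearest were Mrc1 (0.53, in place 30 of the 16745) and Folr2 (0.55, in place 32), then Lyve1 (0.65), Adgre1 (0.66), Timd4 and Stab1 (both 0.70), Vsig4 (0.88), Msr1 (0.91) and Marco (2.63).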

How the data were processed

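Polyadenylated RNA from 42 samples had been made into libraries with a TruSeq kit that does not keep strand. Per the labels, reads were processed with CASAVA 1.8.2, TopHat2 and Cuffdiff on mm10, and the deposited FPKM values are 1 per gene, genotype and tissue, combined by the authors over the samples of a group. The table also holds the authors' fold changes, test statistics, p-values and q-values, which were not used here. There are 0 columns of single samples, so groups are those of the labels, depth is unknown and no test was run. From the FPKM values the log2 of (KO + 0.1) over (WT + 0.1) was computed in Python 3.11.15 with pandas 2.3.3, with a minimum mean of 1 FPKM and a limit of 1.5 times, leaving out genes the table marks as failed or low data. The counting was tested on simulated data. Members and lists were chosen with earlier results of these data known. All members were named in every tissue, of each list at most 3 genes called in most tissues, of the neighbours within 1 Mb those called in 3 or more tissues, and the 5 genes nearest to Cd163 in pattern. Of 134 listed genes 131 were found under their symbol, 1 under an older one and 2 (Hbb-b1 and Hbb-b2) were not matched. Positions are from GENCODE M21 (GRCm38), the sequences from RefSeq. Alternatives were pseudocounts of 1 and 0.01, changes relative to the tissue median, columns set to a sum of 1000000, no minimum or 5 FPKM, and a limit of 2 times. Some genes of the lists are not reported here.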

Additional observations from a re-analysis of the deposited data

How the results depend on the processing

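No paired analysis was possible because the table holds 1 combined value per genotype and tissue, and for the same reason no replicate could be left out. Of 28 recomputed Cd163 changes 25 kept their direction and their side of the limit. Of 49 recomputed counts of receptors called higher 37 stayed within 1.5 times, as did 46 of 49 of those called lower, and 26 of 28 margins of Cd163 over the other receptors moved by no more than 0.58 in log2. With a pseudocount of 1 the Cd163 change in testes was 0.46 and its margin over the other receptors 0.47, the margin was 0.36 in eyes (0.61 before) and 0.06 in liver (0.11 before) and turned from -0.12 to 0.02 in MEFs, 3 receptors were called higher in prostate (5 before) and 0 lower in MEFs (1 before). With 0.01 the Cd163 change in MEFs was -0.93 and its margin -0.81, both from values near 0, and with columns set to equal sums that margin was -0.34. With columns set to a sum of 1000000 the Cd163 change in liver was 0.65 and 5 receptors were called higher there, 4 relative to the tissue median, against 2. That scaling called 567 liver genes higher and 138 lower, against 292 and 260, and in testes 306 and 83 against 177 and 114. Without a minimum 1 receptor, Cd163, was called higher in testes. At a minimum of 5 FPKM 1 was called in prostate and 0 in eyes, and 0 higher and 0 lower in MEFs. At a limit of 2 times 2 were called higher in prostate, 1 in eyes, 1 in liver, 0 in spleen, 0 in heart and 0 lower in MEFs. The fall in these counts follows from the stricter limits themselves. In prostate, spleen, eyes and heart Cd163 stayed past the limit under both pseudocounts and both scalings. Over all genes and the 7 tissues together, 1979 calls were higher and 1157 lower, against 1348 and 591 with a pseudocount of 1, 4653 and 4159 without a minimum, 1000 and 418 at a minimum of 5 FPKM and 592 and 267 at a limit of 2 times. Depth and replicate spread are unknown, so how far receptor values under 1 FPKM can be trusted was not tested.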

Other observations

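The table also holds an adult brain comparison whose samples are not among the labels used here, so its values stand alone. Cd163 was 0.529 FPKM in the WT brain column and 0.495 in the KO column, Mrc1 1.17 and 1.02, Lyve1 0.661 and 0.473, Folr2 0.399 and 0.468, Stab1 2.88 and 2.19 and Adgre1 1.70 and 1.87. Vsig4 was listed at 0 in both, Marco at 0.0121 and 0.0118, Timd4 at 0.0293 and 0.0420 and Msr1 at 0.0994 and 0.109. Csf1r, made by microglia, was 16.0 and 16.7 FPKM and C1qa 27.6 and 29.2. Fkbp5 was 15.2 and 14.3 FPKM, Tsc22d3 60.6 and 62.3 and Zbtb16 7.72 and 5.57. Tug1 was 20.1 FPKM in the WT column and 0.0591 in the KO column.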
